A study of Sus scrofa with 4 samples.

Results

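HOX genes encode homeodomain transcription factors that lie side by side in 4 clusters, HOXA to HOXD, and that give embryonic tissues their position along the head-to-tail and limb axes. Within a cluster the genes are numbered by paralog group from the 3′ end, and genes of low number act in the hindbrain and anterior trunk while genes of high number act in the posterior trunk, the limbs and the urogenital region. Skin fibroblasts keep a HOX pattern of the body site they came from, and HOX clusters are largely held silent in pluripotent cells by Polycomb proteins, which mark chromatin for repression.

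Gene-level RNA-seq counts of porcine cells were searched for every row whose pig symbol was HOXA, HOXB, HOXC or HOXD followed by a number. Reported here are 37 such rows of the 25880, of which 33 were named by their Ensembl identifier and 4 by position on Sscrofa11.1. The rows carried 36 symbols, and HOXA6 and HOXB9 matched no row. On this build the HOXA rows lay on chromosome 18 (45373440 to 45472875, 9 rows), the HOXB rows on chromosome 12 (24784953 to 24950787, 10 rows), the HOXC rows on chromosome 5 (19151169 to 19270411, 9 rows) and the HOXD rows on chromosome 15 (81894121 to 81990807, 9 rows). One row named by position, ENSSSCG00000039193 (chromosome 12, 24872662 to 24880134, minus strand), fell inside the RefSeq span of HOXB8 but next to the HOXB8 row, on the side of the higher-numbered genes. Whether it belongs to HOXB8 or is HOXB9 could not be settled. It is therefore given by its identifier and was kept out of the paralog groups. The HOXA5 row held 2278 exonic bases that lie within RefSeq HOXA6, and the HOXD3 and HOXD4 rows shared 338 exonic bases.

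All cells came from 1 pig, a post-neonatal animal from whose ear skin the fibroblasts (N01F) were grown. The fibroblast library (passage 1) came from the parental cells before any vector was introduced. The library of induced neural stem cell-like cells (iNSLCs, passage 1) came from dome-shaped colonies that arose in a naive-state medium (NSM) after transfection of the fibroblasts with EP-B, a set of episomal vectors for the reprogramming factors OCT4, SOX2, KLF4, L-MYC, LIN28, KLF2, NANOG, GLIS1 and KDM4D and for a dominant-negative mouse p53 (mp53DD). Induced pluripotent stem cells (iPSCs, passage 3) came from such colonies after a change to embryonic stem cell medium with TGF-β1, activin A and IWP2, an inhibitor of WNT secretion, and 2 clones (N1 and N2, here clone 1 and clone 2) were sequenced. The fibroblast and iNSLC groups thus held 1 library each and the iPSC group 2 clones of the same animal, so p-values measure the spread between these clones and not between animals.

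The libraries held 62421521 (fibroblast), 25784594 (iNSLC), 21640374 (clone 1) and 41296933 (clone 2) counts in genes. Levels are counts scaled to a common library size with TMM factors (CPM), and 3 counts, taken as the limit of detection, corresponded to 0.0648, 0.105, 0.127 and 0.0656 CPM in that order. Intervals cover counting error only. The labels were checked against marker genes. The pluripotency gene POU5F1 had 0 counts in fibroblasts, 40.5 CPM in iNSLCs and 295 and 275 CPM in the clones, and NANOG had 0 counts, 0.209 CPM and 52.4 and 40.9 CPM. POU5F1, SOX2, NANOG and LIN28A were also on the vectors, and reads from vector copies cannot be told apart from those of the pig genes here. The 7 fibroblast markers (COL1A1, COL1A2, COL3A1, DCN, LUM, THY1 and PDGFRB) summed to 137651 CPM in fibroblasts, 52645 CPM in iNSLCs and 870 and 892 CPM in the clones, and none of them was at 0 in any library. The iNSLC library thus still held these transcripts at high levels, and in these bulk samples fewer cells of a type and less RNA per cell cannot be told apart. The paper's marmoset protocol used mouse embryonic feeder cells, and whether reads from feeder cells entered the levels given here was not tested. The iNSLC library also held the keratinocyte gene KRT1 at 41.0 CPM, with 2 counts in the fibroblast library and 0 in either clone. KRT5 and KRT14 matched no row, and the neural stem marker SOX1 matched none either. Of the 5 neural stem markers found, 4 were at least 4-fold higher in iNSLCs than in fibroblasts (SOX2, MSI1, NES and FABP7). PAX6 was lower in iNSLCs, at 14.6 CPM against 21.5 CPM in fibroblasts. In the clones SOX2 (211 and 254 CPM) and NES (461 and 505 CPM) stood above the iNSLC library (134 and 384 CPM). MSI1 (85.2 and 97.1 CPM), FABP7 (15.0 and 22.5 CPM) and PAX6 (2.32 and 6.71 CPM) stood below that library in the clones. In iNSLCs MSI1 was at 151 CPM and FABP7 at 83.0 CPM.

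HOX transcripts were present in every library but at low levels. Counts of 3 or more were found in every library for 26 of the 37 rows, 28 rows reached 1 CPM in at least 1 library and 13 in all 4. Summed over the rows, HOX genes made up 102 CPM in fibroblasts, 178 CPM in iNSLCs, 91.1 CPM in clone 1 and 46.96 CPM in clone 2. The sum was thus highest in iNSLCs, with clone 1 close to the fibroblasts and clone 2 below them.

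Compared per kilobase of exon, the leading gene differed between libraries, and this ranking depended on the division by length. By CPM alone, HOXD8 led in both fibroblasts and iNSLCs (31.8 and 18.9 CPM). The unsettled row ENSSSCG00000039193 led by CPM in both clones (13.81 and 10.2 CPM). In fibroblasts HOXD8, a trunk gene of the HOXD cluster, led with 8.19 CPM per kilobase (95% interval 7.77 to 8.61), followed by HOXB3 at 6.78 (6.14 to 7.47). In iNSLCs HOXB4, an anterior gene of the HOXB cluster, stood highest at 12.1 CPM per kilobase (10.8 to 13.6), and its interval overlapped that of HOXB3 at 10.1 (9.14 to 11.2). In both clones HOXC6, a thoracic-level gene, led with 13.9 CPM per kilobase (12.2 to 15.8) in clone 1 and 2.96 (2.40 to 3.62) in clone 2.

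**Figure D1:**
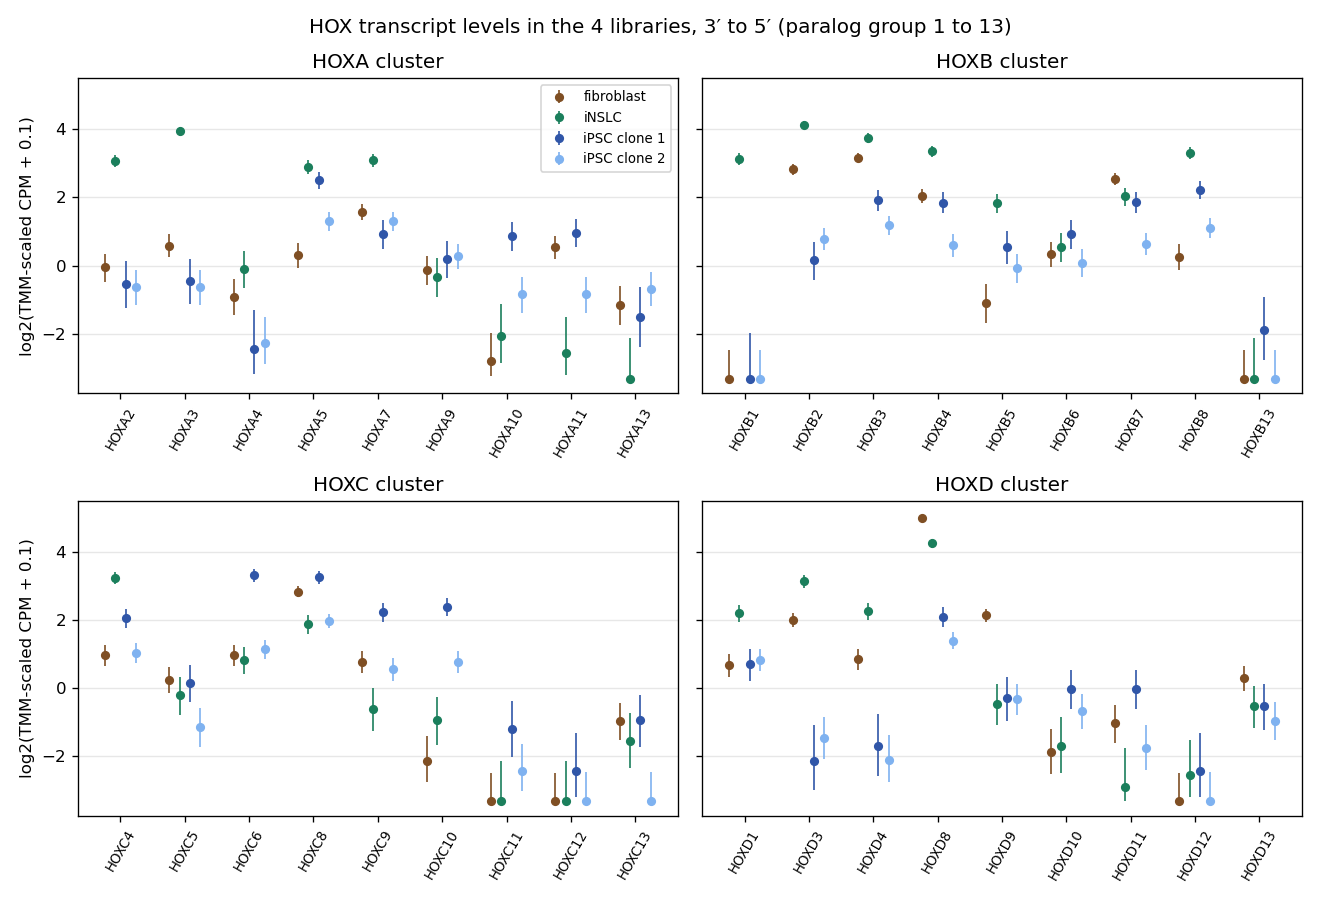
Levels of the 36 named HOX genes in each of the 4 libraries, ordered within each cluster from the 3′ to the 5′ end, as log2(TMM-scaled CPM + 0.1), with bars for the 95% Poisson counting interval. Points for iNSLCs lie on top from HOXA2 to HOXA4, HOXB1 to HOXB5, HOXC4 and HOXD1 to HOXD4, and under 0 on this axis for every gene of group 9 and above.

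The composition by paralog group separated the iNSLC library from the others. Genes of groups 1 to 4 (11 rows) took 72.9% of the summed CPM per kilobase in iNSLCs, against 43.3% in fibroblasts and 21.1% and 31.1% in the clones. Groups 5 to 8 (10 rows) took 24.5% in iNSLCs, 40.7% in fibroblasts and 56.5% and 48.2% in the clones. The posterior groups 9 to 13 (15 rows) took 2.59% in iNSLCs, 16.02% in fibroblasts and 22.3% and 20.7% in the clones. Of the 10 rows of groups 1 to 4 that reached 1 CPM in any library, 10 were highest in iNSLCs, and of the 7 such rows of groups 9 to 13, 0 were highest there. The share of all genes highest in iNSLCs was not counted. The unsettled row ENSSSCG00000039193, left out here, was at 2.91 CPM per kilobase in iNSLCs, its highest library. Groups 9 to 13 together were at 2.21 there, so their share and count would differ if this row is HOXB9.

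**Figure D2:**
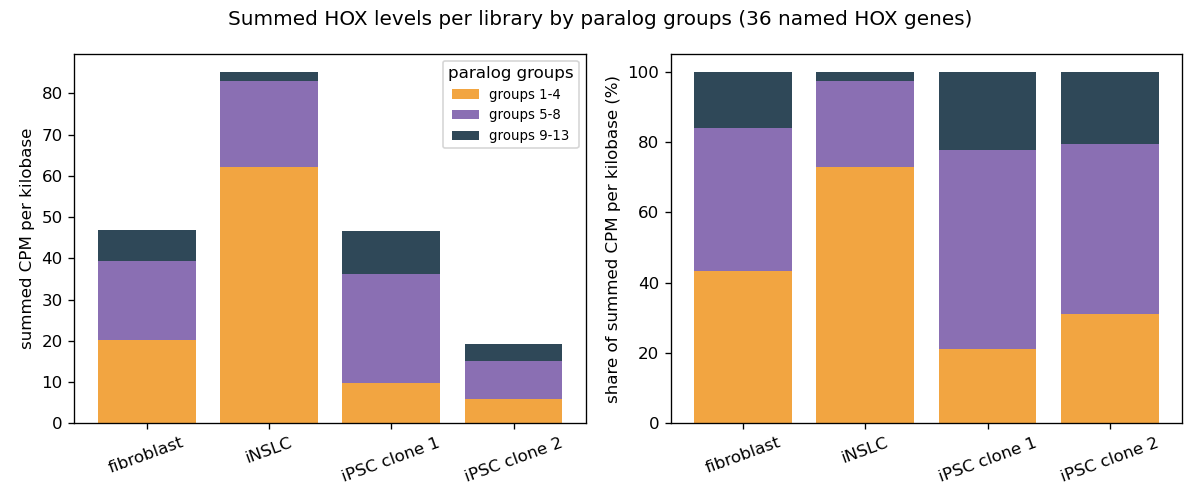
Summed CPM per kilobase of the 36 named HOX genes in each library (left) and the share of that sum (right, %) by paralog groups 1 to 4, 5 to 8 and 9 to 13. The orange part for groups 1 to 4 reaches 62.1 CPM per kilobase in iNSLCs against 20.3 in fibroblasts, and the dark part for groups 9 to 13 falls to 2.21.

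The first comparison asked how HOX transcripts differed between the parental fibroblasts and the iNSLCs derived from them. With 1 library in each group there is no test, and a gene is counted as differing where it was at least 4-fold apart and at 1 CPM or more in the higher library. Of the 25 HOX rows at 1 CPM or more in either library, 7 were higher in iNSLCs (HOXA2, HOXA3, HOXA5, HOXB1, HOXB5, HOXB8 and HOXC4) and 2 were lower (HOXA11 and HOXD9). Over all 13473 genes the same rule counted 15.4% as higher and 8.48% as lower. The median log2 ratio of the HOX rows was 1.20, against -0.04 over all genes. At 2-fold, 14 of the 25 HOX rows were higher in iNSLCs, against 24.7% of all genes.

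HOXB1 (chromosome 12, 24784953 to 24786377, minus strand), which marks one segment of the hindbrain in the embryo, had 248 counts in iNSLCs (8.65 CPM) and 0 in the fibroblast library and each iPSC clone. Set against the limit of 3 counts in the fibroblast library, it was at least 134-fold higher in iNSLCs, and it was the one HOX gene at 1 CPM or more in a single library with 0 counts in all others. HOXD1, which lies at the 3′ end of HOXD, was nearer between the libraries, at 1.49 and 4.47 CPM, a ratio of 2.998 (2.22 to 4.08).

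Genes of groups 2 to 4 lay in the same direction. HOXA2, a patterning gene of the second branchial arch, stood at 0.864 CPM in fibroblasts and 8.34 CPM in iNSLCs, a ratio of 9.66 (6.89 to 13.9). HOXA3, needed for third-arch organs such as the thymus, stood at 1.40 and 15.2 CPM, a ratio of 10.8 (8.32 to 14.3). HOXC4 was at 1.86 and 9.25 CPM, a ratio of 4.98 (3.89 to 6.43). All 3 were apart beyond counting error. The remaining members were also higher in iNSLCs beyond counting error but lay under the 4-fold limit. These were HOXB2 (6.97 and 17.4 CPM), HOXB3 (8.87 and 13.3 CPM), HOXB4 (3.99 and 10.2 CPM), HOXD3 (3.91 and 8.65 CPM) and HOXD4 (1.71 and 4.68 CPM), with ratios between 1.49 and 2.74. HOXA4 stayed under 1 CPM, at 0.432 and 0.838 CPM.

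Groups 5 to 8 were mixed. HOXB5 was at 0.367 CPM in fibroblasts and 3.45 CPM in iNSLCs, a ratio of 9.41 (5.59 to 16.8), HOXB8 at 1.10 and 9.81 CPM, a ratio of 8.90 (6.59 to 12.2), and HOXA5 at 1.14 and 7.33 CPM, a ratio of 6.40 (4.72 to 8.83). HOXA7 was at 2.89 and 8.41 CPM. Nearly level between these libraries were HOXB6 (1.17 and 1.36 CPM) and HOXC6 (1.86 and 1.68 CPM), whose intervals of the ratio included 1, as did that of HOXC5 (1.08 and 0.768 CPM). HOXB7 (5.70 and 3.98 CPM), HOXC8 (7.02 and 3.56 CPM) and HOXD8 (31.8 and 18.9 CPM) were lower in iNSLCs beyond counting error but by less than 2-fold.

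From group 9 on, the 4 named genes at 1 CPM or more in either library were lower in iNSLCs. HOXD9 was at 4.30 CPM in fibroblasts and 0.628 CPM in iNSLCs, 6.84-fold lower (4.22 to 11.8). HOXA11, which acts in the forearm and the uterus, had 63 counts in fibroblasts (1.36 CPM) and 2 counts in iNSLCs, a ratio of 19.5 (5.18 to 164) in favour of fibroblasts, or 12.99 with the iNSLC library set at the limit of 3 counts. HOXC9 stood at 1.62 and 0.558 CPM and HOXD13, the digit gene at the 5′ end of HOXD, at 1.12 and 0.593 CPM. HOXC10, under 1 CPM in both, went the other way with 6 and 12 counts, 3.23-fold higher in iNSLCs (1.12 to 10.5). Every named gene of groups 9 to 13 was under 1 CPM in iNSLCs, at most 0.698 CPM (HOXA9, at 0.820 CPM in fibroblasts). The unsettled row ENSSSCG00000039193, which may be HOXB9, was at 6.09 CPM in fibroblasts and 14.03 CPM in iNSLCs. Across the 24 named HOX genes at 1 CPM or more in either library, Spearman's rho between paralog group and log2 ratio was -0.712. All points come from the same 2 libraries, so the value is a description over genes and carries no p. The fibroblast markers were lower in iNSLCs too, with a median log2 ratio of -1.58, and their part in the lower levels of HOXD9 and HOXA11 was not tested.

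**Figure D3:**
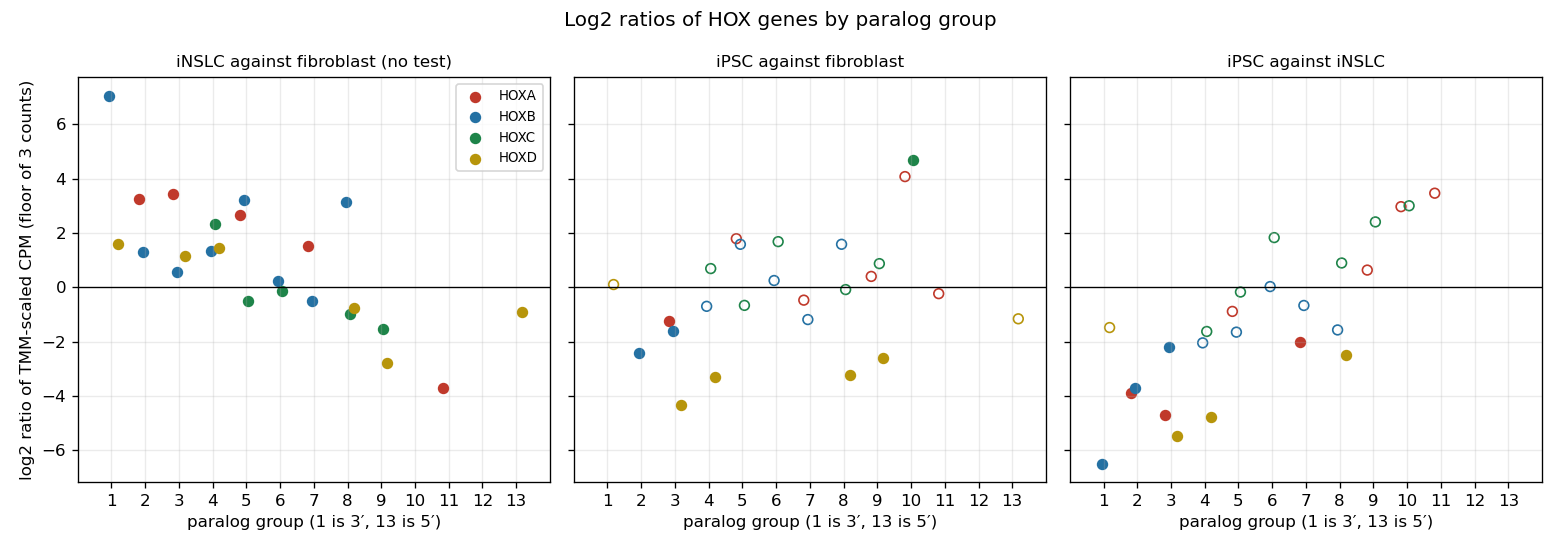
Log2 ratio of TMM-scaled CPM against paralog group for HOX genes at 1 CPM or more in either group, coloured by cluster, with libraries under 3 counts set to 3 counts. In the middle and right panels filled points passed edgeR's quasi-likelihood test (adjusted p under 0.05) and open points did not, and no test was run for the left panel, where HOXB1, at least 134-fold higher in iNSLCs, is on top and HOXA11 at the bottom.

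The step from iNSLCs to iPSCs was compared next, with edgeR's quasi-likelihood test over 15739 genes and Benjamini-Hochberg adjustment. Of 33 HOX rows tested, 9 fell in iPSCs (HOXA2, HOXA3, HOXA7, HOXB1, HOXB2, HOXB3, HOXD3, HOXD4 and HOXD8), and both clones were below the iNSLC library for 9 of these 9. Over all genes tested, 14.1% were called lower and 14.1% higher. Called higher by edgeR were 0 HOX rows, against 3 at an unadjusted p under 0.05 (HOXA11, HOXA13 and HOXC10) and 1 in DESeq2 (HOXC10). The median log2 ratio was -0.69 over the HOX rows and 0 over all genes tested.

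Of the fallen genes, 7 belonged to groups 1 to 4. HOXB1 went from 8.65 CPM in iNSLCs to 0 counts in both clones, at least 90.0-fold lower against the limit of 3 counts per library, with an edgeR adjusted p of 0.00618. HOXA3 went from 15.2 CPM to 0.633 and 0.546 CPM (log2 -4.69 ± 0.33, SE from the fit as in the following values, edgeR adjusted p = 0.00293). For HOXA3 the clones lay close together and far below the iNSLC library. For HOXB1, with 0 counts in both clones, the clones held no spread, so its p rests on the spread estimated over other genes.

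HOXD3 fell from 8.65 CPM to 0.127 and 0.262 CPM, only 3 and 12 counts (log2 -5.36 ± 0.49, edgeR adjusted p = 0.00474). HOXD4, its neighbour, fell from 4.68 to 0.211 and 0.131 CPM (log2 -4.81 ± 0.54, edgeR adjusted p = 0.00748). Both genes were thus near the limit of detection in iPSCs, and part of their exonic sequence is shared. HOXA2 fell from 8.34 to 0.591 and 0.546 CPM, HOXB2 from 17.4 to 1.01 and 1.62 CPM and HOXB3 from 13.3 to 3.67 and 2.16 CPM, with edgeR adjusted p of 0.00577, 0.00505 and 0.0189. All 11 rows of groups 1 to 4 had a negative log2 ratio, with a median of -3.69. The 4 not called were HOXA4 (edgeR adjusted p = 0.0663), HOXB4 (0.0557), HOXC4 (0.0726) and HOXD1 (0.0539), of which HOXB4 passed with DESeq2 or total-count scaling and HOXD1 when only these 2 groups were fitted.

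In groups 5 to 8 HOXD8 fell from 18.9 to 4.18 and 2.54 CPM (log2 -2.51 ± 0.33, edgeR adjusted p = 0.0103) and HOXA7 from 8.41 to 1.82 and 2.36 CPM (log2 -1.999 ± 0.35, edgeR adjusted p = 0.0194). The other 8 rows of these groups did not pass. Among them HOXC6 was at 1.68 CPM in iNSLCs and 9.84 and 2.10 CPM in the clones, so that the gap between the clones exceeded that between clone 2 and iNSLCs.

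For groups 9 to 13, 9 of 11 tested rows had a positive log2 ratio, with a median of 2.38, and edgeR called 0 of them higher, against 3 at an unadjusted p under 0.05 and 1 in DESeq2. HOXC10, a lumbar-level gene, had 12 counts in iNSLCs (0.419 CPM) and 5.11 and 1.62 CPM in the clones (log2 2.98 ± 0.98, edgeR adjusted p = 0.0858, DESeq2 adjusted p = 0.0428). HOXA11 was at 0.0698 CPM in iNSLCs and 1.86 and 0.459 CPM in the clones (edgeR adjusted p = 0.105). HOXA10 was at 0.140 CPM and 1.73 and 0.459 CPM (edgeR adjusted p = 0.167), and HOXC9 at 0.558 CPM and 4.56 and 1.38 CPM (edgeR adjusted p = 0.129). In these 4 genes both clones were above the iNSLC library while differing from each other by 3.16 to 4.05-fold, and that spread entered the test.

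The second tested comparison set the iPSC clones against the fibroblasts they were derived from. It uses the same 2 clones as the comparison with iNSLCs, so the results are not independent. In iPSCs 2 HOX rows rose (HOXC10 and ENSSSCG00000039193) and 7 fell (HOXA3, HOXB2, HOXB3, HOXD3, HOXD4, HOXD8 and HOXD9) of 33 tested, with both clones on the same side for 9 of 9. Over all genes 29.6% were called higher and 27.5% lower, so that HOX rows showed no excess in either direction. The median log2 ratio was -0.10 over the HOX rows and 0.11 over all genes tested. Scaling to total counts, which shifts the median log2 ratio by 0.57, made 6 HOX rows higher in place of 2 and raised the higher calls from 51.9% to 72.8% of all calls, adding HOXA5, HOXA10, HOXB5 and HOXB8 and losing HOXA3 and HOXB3.

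The falls were deepest in the HOXD cluster. HOXD8, the leading HOX gene of the fibroblasts per kilobase, went from 31.8 CPM (1475 counts) to 4.18 and 2.54 CPM (log2 -3.27 ± 0.33, edgeR adjusted p = 0.00158). HOXD3 went from 3.91 to 0.127 and 0.262 CPM (log2 -4.21 ± 0.49, edgeR adjusted p = 0.00241), and HOXD4 from 1.71 to 0.211 and 0.131 CPM (log2 -3.36 ± 0.55, edgeR adjusted p = 0.00677). HOXD9 went from 4.30 to 0.718 and 0.699 CPM (log2 -2.60 ± 0.44, edgeR adjusted p = 0.00779). No other HOX row lies between these 4 genes, and the summed HOXD level was 44.9 CPM in fibroblasts, 38.2 CPM in iNSLCs and 9.20 and 6.45 CPM in the clones. HOXD1, at the 3′ end of the cluster, did not follow, with 1.49 CPM in fibroblasts and 1.52 and 1.68 CPM in the clones.

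Outside HOXD the falling genes were HOXB2 (6.97 CPM to 1.01 and 1.62 CPM, edgeR adjusted p = 0.00487), HOXB3 (8.87 CPM to 3.67 and 2.16 CPM, edgeR adjusted p = 0.0201) and HOXA3 (1.40 CPM to 0.633 and 0.546 CPM, edgeR adjusted p = 0.0329). The call of HOXA3 was lost with DESeq2, with total-count scaling and when only the 2 groups were fitted. HOXD9 was also lower in iNSLCs than in fibroblasts, whereas HOXB2, HOXB3, HOXA3, HOXD3 and HOXD4 were higher in iNSLCs than in fibroblasts and lay below both in the clones. All 7 fibroblast markers fell in iPSCs as well, with a median log2 ratio of -7.05, and their part in the fall of these HOX genes was not tested.

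Of the rising rows, HOXC10 (chromosome 5, 19197808 to 19202972, plus strand) had 6 counts in fibroblasts (0.130 CPM) and 121 and 74 counts in the clones (log2 4.64 ± 1.10, edgeR adjusted p = 0.0211). The unsettled row ENSSSCG00000039193 was at 6.09 CPM in fibroblasts, 14.03 CPM in iNSLCs and 13.81 and 10.2 CPM in the clones (log2 0.97 ± 0.29, edgeR adjusted p = 0.0414), and this call was lost with DESeq2, without the filter and when only the 2 groups were fitted. HOXA10 had 2 counts in fibroblasts and 41 and 21 in the clones, with an edgeR adjusted p of 0.0535, and was called by DESeq2, with total-count scaling and in the fit of the 2 groups.

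The remaining rows were at very low levels. HOXC12 (at most 2 counts) and HOXD12 (at most 2 counts) were under 3 counts in every library. HOXB13 had 4 counts in clone 1 and 0 elsewhere, and HOXC11 had 8 and 4 counts in the clones and 0 elsewhere. HOXA13 (at most 0.524 CPM), HOXC13 (at most 0.422 CPM), HOXD10 (at most 0.887 CPM) and HOXD11 (at most 0.887 CPM) stayed under 1 CPM in all libraries.

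The iPSC clones were then set against each other. They were made from the same animal and have 1 library each, so this is again a comparison by size without a test. Of the 21 HOX rows at 1 CPM or more in a clone, 17 were higher in clone 1, and the 95% counting interval of the ratio lay above 1 for 16 and below 1 for 0. The median log2 ratio was 1.15 over these rows and -0.04 over all 13214 genes. How many of all genes were higher in clone 1, or had an interval above 1, was not counted. At 4-fold, HOXA11 and HOXC6 were higher in clone 1 and 0 rows were higher in clone 2, where 1.23% and 0.174% of all genes were. At 2-fold, 12 of the 21 were higher in clone 1, against 3.22% of all genes and 6% of the 5867 genes at up to 20 CPM in both clones, a limit chosen after seeing the data.

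Among the rows at 1 CPM or more in a clone, the ratio was widest in HOXC6 and in the posterior genes HOXA11 and HOXA10. HOXC6 had 233 counts in clone 1 (9.84 CPM) and 96 counts in clone 2 (2.10 CPM), a ratio of 4.69 (3.68 to 6.01). HOXA11 was at 1.86 and 0.459 CPM, a ratio of 4.05 (2.36 to 7.17), and HOXA10 at 1.73 and 0.459 CPM, a ratio of 3.77 (2.18 to 6.72). Both lie at the 5′ side of HOXA. All 6 HOXC rows at 1 CPM or more were higher in clone 1, with HOXC9 at 3.31-fold (2.41 to 4.59), HOXC10 at 3.16-fold (2.35 to 4.28), HOXC5 at 2.90-fold (1.48 to 5.84), HOXC8 at 2.45-fold (2 to 3) and HOXC4 at 2.08-fold (1.55 to 2.81). In clones 1 and 2, HOXC8 stood at 9.42 and 3.85 CPM, HOXC4 at 4.05 and 1.95 CPM and HOXC5 at 1.01 and 0.350 CPM. HOXA5 was at 5.57 and 2.36 CPM, a ratio of 2.36 (1.82 to 3.07). Of the rows under 1 CPM, HOXD11 had a ratio of 4.51 (1.98 to 11.2), HOXC13 had 10 counts in clone 1 and 0 in clone 2, and HOXD13, at 0.591 and 0.415 CPM, was level within counting error.

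HOXB genes at 1 CPM or more in a clone differed by at most 2.47-fold (HOXB4), close to HOXC8 at 2.45-fold. HOXB4 was at 3.50 and 1.42 CPM, HOXB7 at 3.55 and 1.46 CPM and HOXB8 at 4.56 and 2.05 CPM, each between 2.22 and 2.47-fold higher in clone 1. HOXB6 (1.82 and 0.962 CPM) and HOXB3 were above counting error as well. The ratio of HOXB5 (1.35 and 0.852 CPM) was 1.59 with an interval of 0.961 to 2.60. Level within counting error were HOXA7, HOXA9 (1.06 and 1.11 CPM) and HOXD1, and HOXB2 was at 1.01 and 1.62 CPM. The difference was thus not shared by HOXA7, HOXA9, HOXB2 and HOXD1. Spearman's rho between paralog group and log2 ratio of the clones was 0.499 over 20 named genes, as a description.

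The fibroblast markers summed to 870 CPM in clone 1 and 892 CPM in clone 2, and 3 of 7 were higher in clone 1. The 5 pluripotency markers summed to 1090 and 1091 CPM. The 33 genes at 1 CPM or more that neighbour the clusters within 500 kb were higher in clone 1 in 14 cases, with a median log2 ratio of -0.05, and 0 differed by 4-fold. The muscle gene DES was at 16.1 and 5.18 CPM, while MYOD1, also a muscle gene, had 2 counts in each clone. Markers of other cell types at 1 CPM or more in a clone were mostly lower in clone 1. Higher there were 0 of 5 neural stem, 0 of 2 endothelial, 0 of 1 melanocyte, 0 of 1 blood and 1 of 3 cartilage genes. The median log2 ratio of the neural stem genes was -0.27. Clone 1 had the smaller library. The part of these in the HOX difference was not tested.

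**Figure D4:**
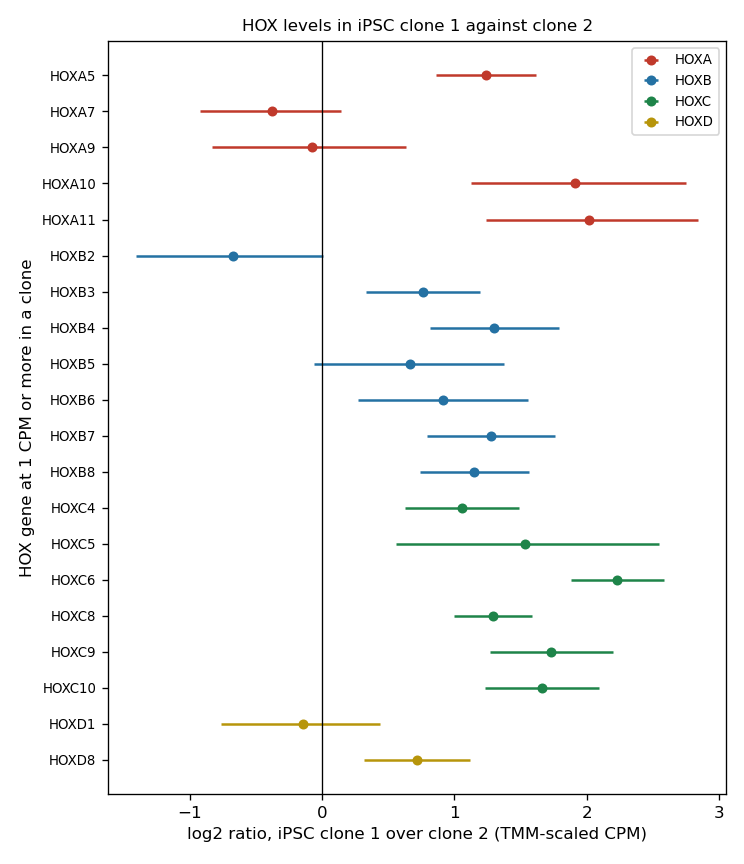
Log2 ratio of clone 1 over clone 2 for the 20 named HOX genes at 1 CPM or more in a clone, with 95% counting intervals, coloured by cluster. HOXC6 is farthest to the right at a ratio of 4.69, all HOXC genes lie right of 0, and HOXA7, HOXA9, HOXB2 and HOXD1 lie left of it with intervals that reach 0.

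HOX proteins bind DNA together with homeodomain partners of the PBX, MEIS and PKNOX families. Of 8 such genes, 5 rose and 1 fell in iPSCs against fibroblasts, where 29.6% of all genes rose and 27.5% fell. Against iNSLCs 2 fell (PBX3 and MEIS2), as did 14.1% of all genes. MEIS2 was at 18.4 CPM in fibroblasts, 109 CPM in iNSLCs and 26.0 and 24.2 CPM in the clones, and its fall had an edgeR adjusted p of 0.00218. PBX3 was at 15.9, 68.5, 31.6 and 35.8 CPM in the same order (edgeR adjusted p = 0.0123). Both genes were highest in iNSLCs, as were the reported HOX genes of groups 1 to 4 at 1 CPM or more. PKNOX2 had another pattern, at 4.12 CPM in fibroblasts and 53.3, 49.2 and 69.0 CPM in the others, and rose in iPSCs against fibroblasts (edgeR adjusted p = 0.00077).

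CDX genes, which act upstream of trunk HOX genes in the embryo, were nearly silent in fibroblasts. CDX2 had 0 counts in fibroblasts, 675 in iNSLCs (23.6 CPM) and 58 and 177 in the clones (2.45 and 3.87 CPM). It fell from iNSLCs to iPSCs (edgeR adjusted p = 0.00819), as did CDX1, at 8.62 CPM in iNSLCs and 1.14 and 0.240 CPM in the clones (edgeR adjusted p = 0.0379). CDX4 had 0 counts in fibroblasts, 12.6 CPM in iNSLCs and 17.9 and 25.7 CPM in the clones, and the difference between these groups did not pass (edgeR adjusted p = 0.113). EVX1, the homeobox gene beside HOXA13, took the other course, with 0 counts in fibroblasts, 0.768 CPM in iNSLCs and 6.84 and 3.80 CPM in the clones (edgeR adjusted p = 0.0332 against iNSLCs). Of the 8 genes of this list 5 could be tested, with 3 called higher in iPSCs than in fibroblasts against 29.6% of all genes, and GSX1, GSX2, PDX1 and EVX2 stayed under 1 CPM.

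**Figure D5:**
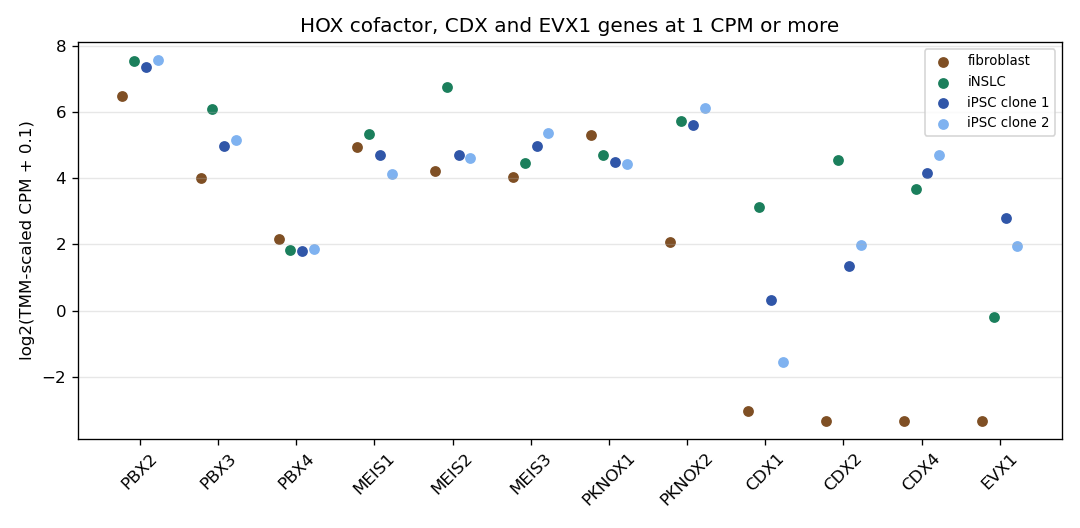
Levels of the HOX cofactor genes and of CDX1, CDX2, CDX4 and EVX1 in the 4 libraries as log2(TMM-scaled CPM + 0.1), without error bars. CDX2 is at 0 counts in fibroblasts, 23.6 CPM in iNSLCs and 2.45 and 3.87 CPM in the clones, and PBX3 and MEIS2 are highest in iNSLCs.

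Of 12 chromatin regulators that maintain HOX silence or activity, 8 rose and 2 fell in iPSCs against fibroblasts, beside 29.6% and 27.5% of all genes. CBX2, a Polycomb subunit, was at 4.84 CPM in fibroblasts, 98.1 CPM in iNSLCs and 63.2 and 72.3 CPM in the clones (edgeR adjusted p = 0.00027 against fibroblasts). EZH2, the Polycomb methyltransferase, was at 19.4, 132, 88.4 and 93.9 CPM (edgeR adjusted p = 0.00045). ASH1L, an activating methyltransferase, fell from 175 CPM to 43.8 and 38.0 CPM (edgeR adjusted p = 0.00052), and BMI1, another Polycomb subunit, from 131 CPM to 50.8 and 40.7 CPM (edgeR adjusted p = 0.00207). Against iNSLCs 3 of the 12 were higher and 4 lower, beside 14.1% of all genes each way, with CBX2, EZH2, ASH1L and BMI1 the 4 lower ones.

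Genes around the clusters were counted as well. Of 37 tested genes within 500 kb of a cluster, 11 rose and 11 fell in iPSCs against fibroblasts, close to the 29.6% and 27.5% of all genes. Against iNSLCs 8 rose and 6 fell, beside 14.1% of all genes each way. The sources used here do not say whether counting used strand, and without it reads of a gene and its antisense partner cannot be told apart.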

How the data were processed

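RNA extracted with the RNeasy Mini Kit was sequenced by Illumina mRNA-seq in 4 libraries of 1 pig. Per the labels, the authors trimmed reads with Trim Galore 0.4.0, aligned them with STAR 2.5.3a to Sscrofa11.1 and counted them with featureCounts 1.5.2. The deposited values are raw read counts per Ensembl gene, and 4 of 4 single-sample tables equalled the series table. Pig symbols came from Ensembl identifiers (14857 rows) or, failing that, from RefSeq genes on Sscrofa11.1 with at least 50% reciprocal overlap or, where the symbol was free, 80% of the RefSeq gene covered (1964 rows).

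All 4 libraries were fitted with edgeR 4.0.16 (R 4.3.3) as 3 groups, with TMM scaling, filterByExpr and the quasi-likelihood test, at a threshold of 0.05 after adjusting p-values over 15739 genes by the Benjamini-Hochberg method. The fit had 1 residual degree of freedom, that between the iPSC clones, and assumes that the lone fibroblast and iNSLC libraries vary like them. Of the HOX rows, HOXB13, HOXC11, HOXC12 and HOXD12 did not pass the filter. Pairs of single libraries were compared by size (4-fold, 1 CPM, floor of 3 counts) with exact 95% conditional binomial intervals from SciPy 1.17.1. Alternatives were DESeq2 1.42.0, other scalings and filters, fewer groups, other size limits and leaving out a clone. Scripts were tested on simulated data. The HOX members and all lists were chosen with earlier results of these data known. Some genes are not reported here. Every reported HOX row is named, with its levels where it reached 1 CPM in any library, and of the other lists up to 4 genes by size of change. The sources used here do not say whether mouse feeder cells were removed before RNA extraction. No nucleotide sequences were used here.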

Additional observations from a re-analysis of the deposited data

How the results depend on the processing

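Of 6 alternative fits, 4 changed a HOX call against fibroblasts and 3 one against iNSLCs. With total-count scaling, 6 HOX genes were higher in iPSCs than in fibroblasts (2 with TMM, 1 without the filter on low counts), 7063 of all genes were higher (4665) and 2645 lower (4326), and by size 1 HOX gene was higher in clone 1 than in clone 2 (2 with TMM). DESeq2 called 1 HOX gene higher in iPSCs than in iNSLCs (0 with edgeR). Requiring 10 CPM left 1 HOX gene higher (7) and 0 lower (2) in iNSLCs than in fibroblasts and 0 higher in clone 1, and a 2-fold limit gave 14 and 12 higher. Each of these changes only the scaling, the model or the limit. The fewer genes at 10 CPM and the additional genes at 2-fold follow from the limit. Total-count scaling shifted the median log2 ratio of iPSCs against fibroblasts by 0.57. The cause of changes other than those from the limit was not tested. RLE scaling kept 9 of the 9 HOX calls against fibroblasts and 9 of 9 against iNSLCs. No called HOX ratio reversed its direction in these fits. Of those not called, total-count scaling turned the log2 ratio against fibroblasts of HOXA7 from -0.46 to 0.11, of HOXA11 from -0.27 to 0.29 and of HOXC8 from -0.095 to 0.47, and that of HOXB6 against iNSLCs from 0.0089 to -0.0062 (-0.0022 at 1 CPM, -0.0038 with only the 2 groups). Leaving out a clone left no residual degrees of freedom, so counts of calls could not be given. Without clone 1, 5 HOX log2 ratios moved by more than the spread, and without clone 2, 4 did. Ratios without a clone use the floor of 3 counts, which the fit does not. HOXB1 against iNSLCs, at 0 counts in both clones, moved from -11.3 to -7.04 and -6.09 through this floor. HOXA13, at 0 counts in iNSLCs, moved from 6.87 to 2.32 and 1.27 under it. For HOXB1 and HOXA13 such moves do not show dependence on a clone. HOXA10 against fibroblasts moved from 4.52 to 2.82 without clone 1 and was 4.74 without clone 2. HOXA11 against iNSLCs moved from 3.95 to 2.13 without clone 1 and was 4.15 without clone 2. Both had 2 counts in the compared library and differed between the clones (3.77 and 4.05-fold). The parts of the floor and of the clone in these moves were not separated. Leaving out a clone turned the sign of 10 HOX ratios, none of which had been called. No paired analysis was possible because the groups share fewer than 2 replicate numbers. With 1 library of fibroblasts and of iNSLCs, differences between cultures or libraries cannot be told apart from those between groups. All libraries came from 1 pig, so variation between animals could not be seen. Levels under 3 counts were not detectable at this depth.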
